A study of Mus musculus with 12 samples.

Results

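The genes described here are 42 mouse genes of glycolysis and of the response to low oxygen, chosen by name: glucose carriers and glycolytic enzymes (19 genes), genes that handle pyruvate and lactate (5), subunits and regulators of the hypoxia-inducible factors (8), and targets of those factors (10). Both tables of the series list 40 of the 42, among 19262 genes in the table of TKO and WT cells and 16785 in the table of Dox and CTL cells. Of these, 39 passed the filter on low values in each table, among 12649 and 12634 genes tested. Car9, a carbonic anhydrase induced by low oxygen, was listed below the filter, and Aldoa and Ero1l are not analysed here. Messenger RNA was sequenced in 12 libraries, 3 in each of 4 groups, from stromal vascular cells of white adipose tissue grown as primary culture. TKO cells lacked all copies of the microRNA miR-26, being miR-26b-/- as well as miR-26a-1-/- and miR-26a-2-/-, and WT cells were wild type. Dox cells carried the transgenes M2rtTA and eGFP.miR-26a and spent 4 days in doxycycline at 1 mg/ml, while CTL cells had both transgenes but no drug. All mice were C57BL/6 and 6 weeks old, and all cultures were grown to confluency. The promoter behind M2rtTA and the line of origin of the transgenic mice are not given in the sources used here, nor is it said whether replicates were separate animals or separate cultures. P-values therefore measure only the spread between these libraries.

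Glycolysis splits glucose into pyruvate in the cytosol, and lactate dehydrogenase and the monocarboxylate carriers then turn pyruvate into lactate and export it. When oxygen is scarce, the alpha subunits HIF-1alpha and HIF-2alpha (genes Hif1a and Epas1) escape destruction, pair with ARNT and switch on most glycolytic genes together with genes for blood vessel growth and for the removal of mitochondria. With oxygen present, the prolyl hydroxylases of the Egln genes mark the alpha subunits, the VHL ubiquitin ligase destroys them, and the asparaginyl hydroxylase encoded by Hif1an blocks their activity. In adipose tissue these genes are known from expanding fat, where poorly supplied tissue becomes hypoxic.

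A microRNA finds its messenger RNAs by pairing of its seed, bases 2 to 8 of the mature strand, with the 3′ untranslated region (UTR). The mature sequences are shown because the matches searched for below were read from them, with the seed in capitals (RefSeq, GRCm38.p6). The 5p strand of miR-26a is made from genes at chr9:119031811-119031832 and chr10:126995543-126995564, and that of miR-26b from chr1:74394324-74394344, all on the plus strand.
miR-26a-5p: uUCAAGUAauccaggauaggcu
miR-26b-5p: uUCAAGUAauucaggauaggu
Both strands share 1 seed, whose match in a UTR reads TACTTGA. A match to all 7 seed bases, with or without an A after it, was found in the UTR of 2 of 40 members, against 11.59% of the tested genes of the TKO table with an annotated UTR (GENCODE vM21). A shorter match, to bases 2 to 7 of the strand with an A after it, was not counted here. It occurred in Slc2a1, Epas1, Bnip3l, Ndrg1 and Ak4, and its share over all genes is not given. The members with a full match are Adm, which encodes the vessel-dilating peptide adrenomedullin, and Pfkfb3, which encodes the main activator of phosphofructokinase. Their sites are printed 5′ to 3′ on the messenger strand, with the match and any A after it in capitals.
Adm, UTR base 258 of 652: agcctcattacTACTTGAActttccaaaac
Pfkfb3, UTR base 2389 of 3063: ttcatttgtaaTACTTGAAgtttatttttt
Pfkfb3, UTR base 2900 of 3063: gtcagtgccttTACTTGAgtcaatcattt
Neither gene passed the test in TKO against WT. Adm read 68.0, 114 and 60.5 in the TKO libraries against 129, 114 and 125 in the WT libraries, and Pfkfb3 read 53.2, 101 and 60.2 in TKO against 42.6, 51.3 and 69.6 in WT. These are the deposited signal values, that is, reads per gene after scaling with 1 factor for each library. Both genes are taken up again below with their tests.

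The libraries held 71455171 to 83461531 recovered reads in TKO, 54978109 to 61307152 in WT, 19301969 to 25785439 in Dox and 20182665 to 24122542 in CTL. Of the markers of adipose stromal cells, all 10 of 10 were listed in both tables, led by Col1a1, Col3a1 and Vim. Their summed signal was 28921 to 30031 in TKO, 22602 to 23806 in WT, 28499.6 to 42885 in Dox and 28098 to 40692 in CTL. The sum does not speak for each marker: Col3a1 alone read 12141 to 13850 in TKO, while Ly6a read 48.2 in Dox replicate 1. By limma 1 of these 10 markers was higher in TKO than in WT, Col3a1 (0.79 ± 0.13, adjusted p = 0.00307), and 2 were lower, Thy1 (-0.86 ± 0.15, adjusted p = 0.00426) and Pdgfrb (-0.47 ± 0.12, adjusted p = 0.0168). The part of these differences in the results was not tested. Every listed gene was above 0 in each library of its table, so no listed marker stood at 0. Sums for other cell types are given beside the results they move with. The level of the microRNAs themselves is not analysed here.

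Levels were compared between genes per kilobase of transcript. In TKO and WT cells the highest levels were those of Pkm, Eno1 and Ldha, near the end of the pathway. Pkm (pyruvate kinase, the last step to pyruvate) averaged 530.2 in TKO and 531 in WT, Eno1 (enolase) 475 in TKO and 249.8 in WT, and Ldha (the lactate-forming subunit of lactate dehydrogenase) 465 in TKO and 221 in WT. Of the first steps, the glucose carrier Slc2a1 averaged 42.8 in TKO and 32.8 in WT, the hexokinase Hk1 31.1 in TKO and 33.2 in WT, and the phosphofructokinase subunit Pfkl 48.8 in TKO and 29.9 in WT. Levels did not climb step by step. The early Gpi1 averaged 127 in TKO and 163 in WT. The late Pgam1 averaged 62.1 in TKO and 20.8 in WT, and the lactate carrier Slc16a1 21.7 in TKO and 12.2 in WT. Aldoc, the brain-type aldolase and the 1 aldolase gene with a row among the members, averaged only 1.65 in TKO and 1.497 in WT. Of the paired isozymes, Ldha stood far above Ldhb (20.05 in TKO and 20.7 in WT per kilobase), and Eno1 far above the neuronal Eno2 (15.1 in TKO and 11.4 in WT). The order in Dox and CTL cells was of the same kind, although the 2 tables were scaled separately and no test was made across them.

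**Figure D1:**
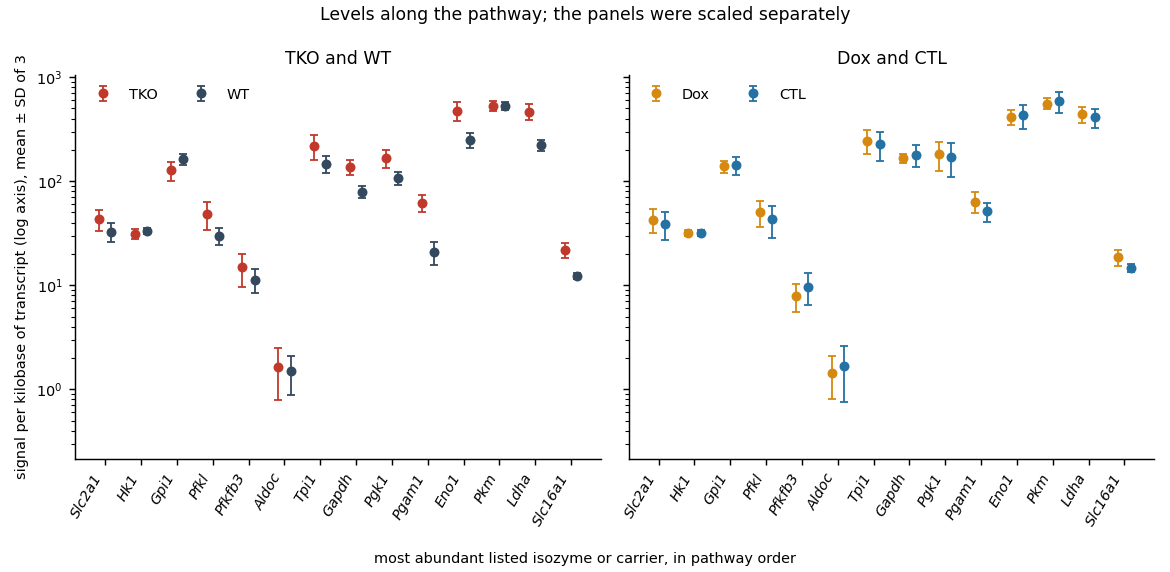
Mean signal per kilobase of transcript (log axis, bars ± SD of 3 libraries) for the most abundant listed isozyme or carrier at each step, in pathway order. TKO and WT are in the left panel, Dox and CTL in the right, and the panels were scaled separately. Ldha averaged 465 in TKO and 221 in WT, while Dox (437) and CTL (412) lay close together.

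Gapdh, Pgk1, Pgam1, Eno1, Ldha and the lactate carriers Slc16a1 and Slc16a3 were higher in TKO cells than in WT cells, and Hif1a and Vegfa were lower. In TKO against WT, limma called 17 of 39 members at an adjusted p under 0.05 (43.6%), beside 45.8% of all genes tested. Of these members 15 were higher in TKO (38.5%, beside 23.2% of all genes) and 2 were lower (5.13%, beside 22.7%). The share called was thus near that of all genes, while 15 of the 17 calls were higher in TKO, beside 2930 of 5796 over all genes. The median log2 fold change was 0.36 over the members, with 28 of 39 above 0, and -0.00085 over all genes. The groups did not overlap for 15 members higher in TKO (all genes, 29.4%) and 4 lower (all genes, 29.4%), or 19 in all (all genes, 58.8%). Scaling to library size alone moved the median of all genes by 0.11 and gave 3824 genes higher and 1913 lower, where the deposited scaling gave 2930 and 2866. Under it 16 members were higher and 2 lower. In bulk RNA, fewer cells of a type and less RNA per cell cannot be told apart.

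**Figure D2:**
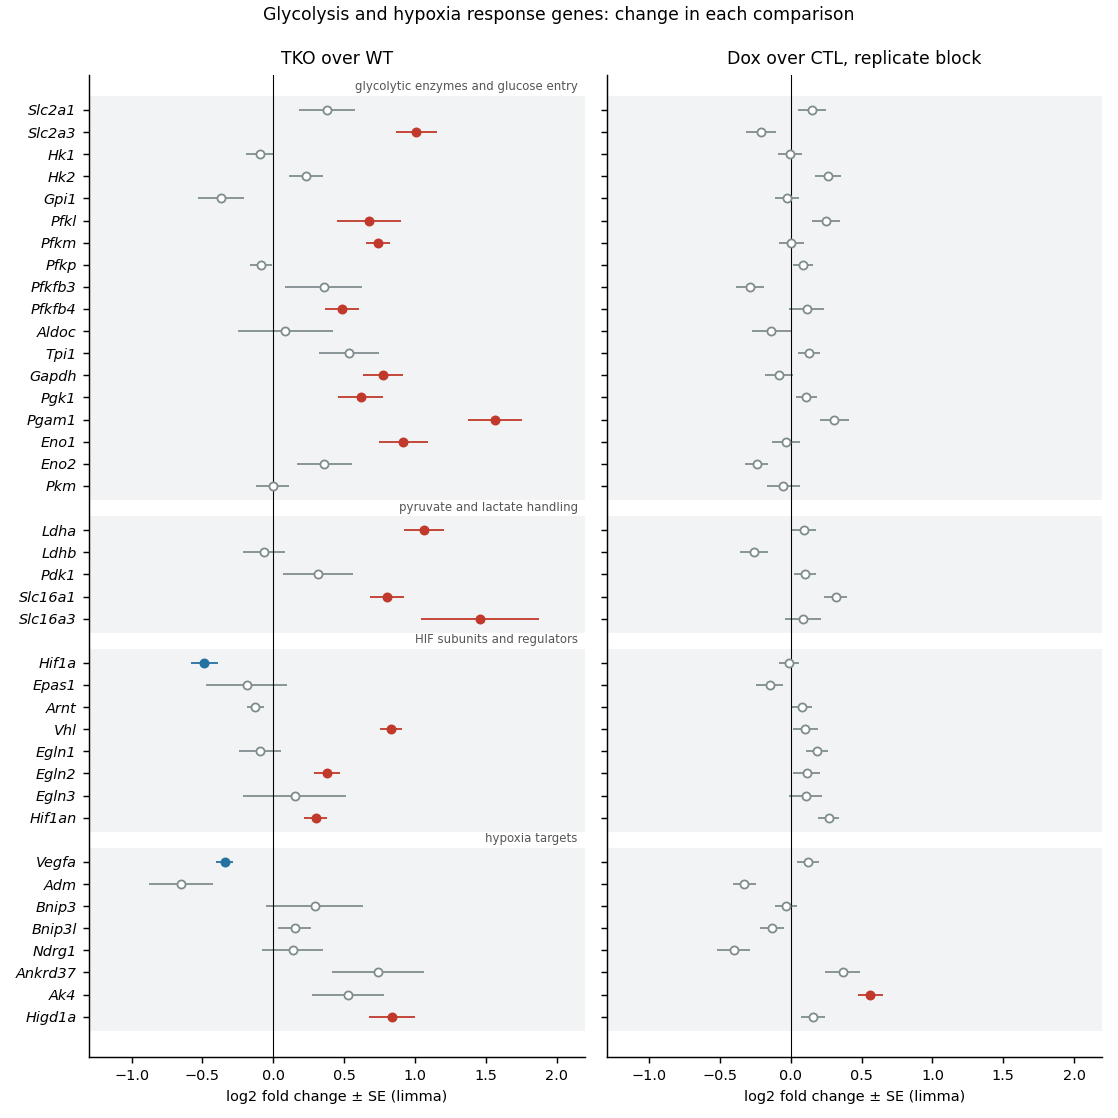
Log2 fold change ± SE from limma for the 39 members tested, grouped by role, with TKO over WT on the left and Dox over CTL with the replicate block on the right. Filled points passed an adjusted p of 0.05 (red higher, blue lower). On the left 15 genes are filled red and 2 blue, and on the right only Ak4 is filled.

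Of 18 carriers and glycolytic enzymes tested, 8 rose in TKO cells (all genes, 23.2%), 0 fell (all genes, 22.7%) and 10 did not pass. Glucose entry differed by carrier. Slc2a3, a high-affinity glucose carrier best known from neurons, had 9.51, 14.1 and 12.3 in TKO and 4.94, 5.40 and 5.81 in WT. All TKO libraries lay above all WT libraries, with a log2 fold change of 1.01 ± 0.15 (SE; limma, adjusted p = 0.00216). The far more abundant Slc2a1, the common carrier of cultured cells, had 120.2, 175 and 123 in TKO and 86.3, 104 and 131 in WT. Its groups overlapped and it did not pass (0.38 ± 0.20, adjusted p = 0.157 by limma), except without both TKO replicate 2 and WT replicate 3 (0.36, limma adjusted p = 0.0498). The hexokinases, which trap glucose as its phosphate, did not pass either. Hk1 had 134, 148 and 117 in TKO against 131, 145 and 149 in WT, and Hk2, the hypoxia-inducible form, ranged over 75.4 to 99.5 in TKO and 69.0 to 82.0 in WT. Hk2 was called higher under 2 of 16 alternatives, library-size scaling (0.36, limma adjusted p = 0.0419) and removal of the trend on length and GC content (0.33, limma adjusted p = 0.0365). Gpi1, the isomerase of the next step, had 309, 452 and 339 in TKO and 406, 475 and 528 in WT, and did not pass (-0.37 ± 0.16, limma adjusted p = 0.11). It was called lower in TKO with the trend on length and GC content removed (-0.42, limma adjusted p = 0.0481; 0.0373 with the replicate block as well), without TKO replicate 2 (-0.53, 0.0155), and without both TKO replicate 2 and WT replicate 3 (-0.44, 0.0306).

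Phosphofructokinase commits sugar to glycolysis, and 2 of its 3 subunit genes rose. Pfkm, the muscle-type subunit, had 37.3, 37.2 and 31.9 in TKO and 21.4, 21.05 and 19.98 in WT, with a tight spread in both groups. Its log2 fold change was 0.74 ± 0.08 (limma, adjusted p = 0.000959). The more abundant liver-type Pfkl had 151, 246 and 149 in TKO and 91.7, 109 and 134 in WT. TKO replicate 2 stood well above the other TKO libraries, and the call was narrow (0.68 ± 0.23, limma adjusted p = 0.0483): without TKO replicate 2 the change was 0.44 with a limma adjusted p of 0.0602, and it also missed the threshold without WT replicate 1 (0.15) or WT replicate 2 (0.123). It missed as well with no filter on low values (0.0626), with median centring (0.055) and with the trend on length and GC content removed (0.0521; 0.0635 with the replicate block as well), 7 of 16 alternatives in all. The platelet-type Pfkp had 76.8 to 89.9 in TKO and 84.5 to 90.6 in WT. Of the enzymes that make the activator fructose-2,6-bisphosphate, Pfkfb4 had 13.96, 10.3 and 12.6 in TKO and 9.18, 8.12 and 8.05 in WT. These groups did not overlap (0.49 ± 0.12, limma adjusted p = 0.017), though the call was lost without WT replicate 2 (0.0675) or WT replicate 3 (0.0579) and with the trend on transcript length and GC content removed (0.0533). Pfkfb3, the one with seed matches, overlapped between the groups (0.36 ± 0.27, limma adjusted p = 0.32).

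Between triose phosphate and phosphoenolpyruvate, Gapdh, Pgk1, Pgam1 and Eno1 rose in TKO, and Tpi1 did not pass. Tpi1, the triose phosphate isomerase, had 279.6, 456 and 309.8 in TKO and 197, 232 and 283 in WT, with 1 TKO library just under the highest WT library (0.54 ± 0.21, limma adjusted p = 0.0767). It was called higher under 3 of 16 alternatives. These were DESeq2 (0.55, DESeq2 adjusted p = 0.0219), without TKO replicate 1 (0.68, limma adjusted p = 0.0456), and without both TKO replicate 2 and WT replicate 3 (0.46, limma adjusted p = 0.029). Gapdh, the dehydrogenase that makes the first NADH of the pathway and a common reference gene, had 163, 225 and 193 in TKO and 98.7, 109.9 and 129 in WT. No TKO library reached down to WT, and the log2 fold change was 0.78 ± 0.14 (limma, adjusted p = 0.00535). Pgk1, which makes the first ATP, had 267, 370.2 and 275 in TKO and 170.5, 193 and 228 in WT. The groups were again apart (0.62 ± 0.16, limma adjusted p = 0.0186), but the call was lost without WT replicate 1 (0.067) or WT replicate 2 (0.0644).

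Pgam1, the phosphoglycerate mutase, had the largest log2 fold change of the 18 enzymes and carriers, with 102, 133 and 95.4 in TKO and 29.7, 34.1 and 46.8 in WT. The lowest TKO library lay above the highest WT library, and the log2 fold change was 1.57 ± 0.19 (limma, adjusted p = 0.00128). Eno1, the enolase of most tissues, had 818, 1193 and 879 in TKO and 437, 486 and 596 in WT, all TKO libraries higher (0.92 ± 0.18, limma adjusted p = 0.00614). The neuronal enolase Eno2 ranged over 30.1 to 51.4 in TKO and 29.4 to 35.9 in WT and did not pass. It was called higher under 1 of 16 alternatives, without TKO replicate 1 (0.58, limma adjusted p = 0.00951). Pkm had 1198, 1462 and 1208 in TKO and 1175, 1292 and 1408 in WT, with overlapping groups and a log2 fold change of -0.0046 ± 0.12 (limma, adjusted p = 0.979). Several of these genes have near-identical copies, so their counts are uncertain. The share of a transcript's 50-base stretches found elsewhere in annotated transcripts was 0.82 for Gapdh, 0.72 for Eno1, 0.68 for Pgk1, 0.41 for Pgam1, 0.34 for Pkm and 0.17 for Ldha. Among the 15 members that rose, 9 shared under 0.05 of their stretches, Slc2a3, Pfkm, Slc16a1 and Vhl among them. The exons of Pfkm are, however, overlapped on the same strand by Gm26513.

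The lactate branch held the marker gene Ldha, which had 758, 1014 and 761 in TKO and 365, 386 and 454 in WT. Every TKO library was above every WT library, and the log2 fold change was 1.06 ± 0.14 (limma, adjusted p = 0.00171), with the mean 2.10 times that of WT. Ldhb, the heart-type subunit that favours the reverse reaction, had 32.8, 23.7 and 21.95 in TKO and 27.9, 27.8 and 25.3 in WT (-0.07 ± 0.15, limma adjusted p = 0.745). Both lactate carriers among the members rose. Slc16a1 (MCT1) had 86.7, 114 and 87.1 in TKO and 52.0, 52.8 and 57.9 in WT, without overlap (0.80 ± 0.12, limma adjusted p = 0.00241). Slc16a3 (MCT4), the low-affinity exporter and a hypoxia target, had 59.5, 138 and 77.2 in TKO and 18.6, 30.7 and 49.8 in WT. Its groups did not overlap but spread widely (1.46 ± 0.42, limma adjusted p = 0.0277). Leaving out TKO replicate 2 gave 1.12 (limma adjusted p = 0.0548), and the call was also lost without TKO replicate 3 (0.056), WT replicate 1 (0.0807) or WT replicate 2 (0.0797). Pdk1, the kinase that closes the gate from pyruvate into mitochondria, had 49.7, 82.5 and 49.3 in TKO and 38.0, 44.6 and 61.1 in WT, which overlapped (0.32 ± 0.25, limma adjusted p = 0.332).

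**Figure D3:**
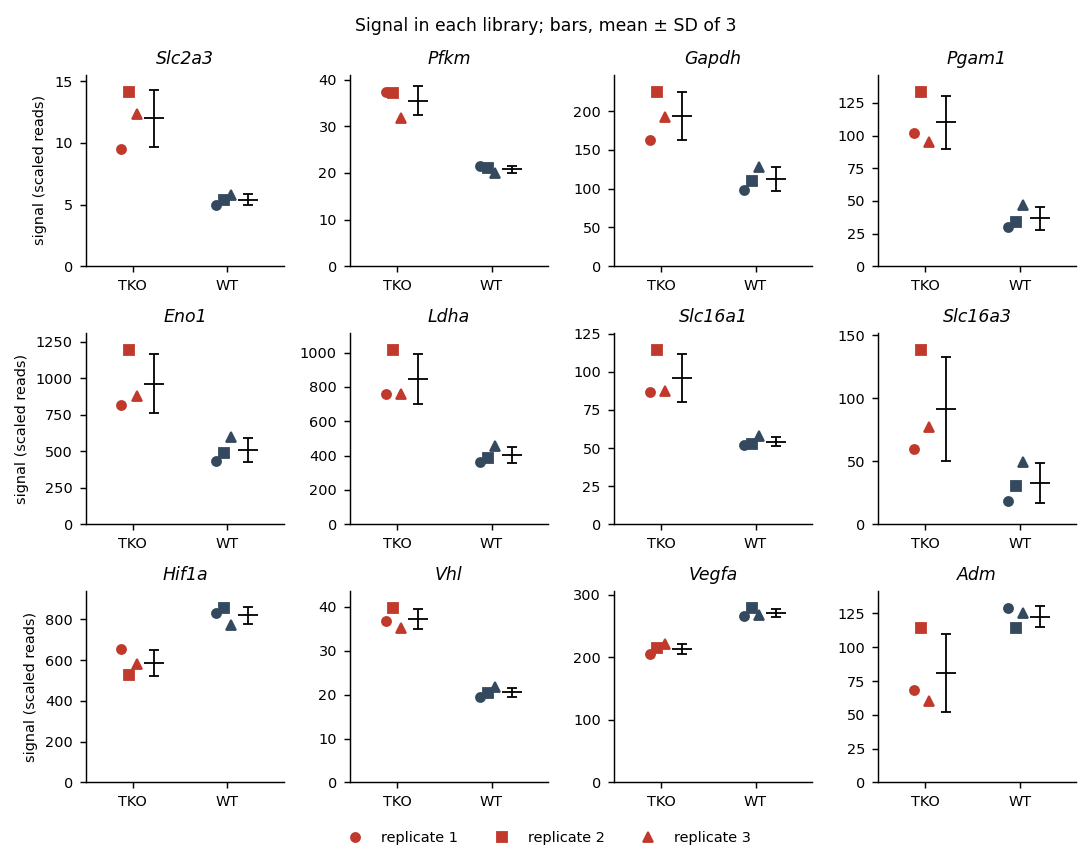
Deposited signal (scaled reads, axis from 0) in each TKO and WT library for 12 members, with the mean ± SD of 3 beside the points and the replicate number as the marker shape. Ldha lies between 758 and 1014 in TKO and between 365 and 454 in WT. For Hif1a and Vegfa all TKO libraries are lower, and for Adm TKO replicate 2 lies almost level with WT.

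Of the 8 factor subunits and regulators, 3 rose in TKO (all genes, 23.2%) and 1 fell (all genes, 22.7%). Hif1a fell, and Vhl, Egln2 and Hif1an rose. A link between these changes was not tested. The call of Egln2 was lost under 3 of 16 alternatives and that of Hif1an under 6 of 16, and Egln1 did not pass. Hif1a, which encodes the oxygen-regulated subunit, had 655, 528 and 579 in TKO and 832, 855 and 774 in WT. All TKO libraries were lower (-0.49 ± 0.10, limma adjusted p = 0.00765), and the call was lost only when a replicate block and a trend on length and GC content were fitted together (-0.25, limma adjusted p = 0.0762). Epas1, the HIF-2alpha gene, had 24.5, 56.6 and 36.1 in TKO and 35.9, 43.0 and 48.5 in WT, which overlapped. Arnt, the constant partner subunit, had 109, 102 and 110.0 in TKO and 116, 116 and 119.7 in WT, a small shift without overlap that did not pass (-0.13 ± 0.06, limma adjusted p = 0.118).

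Vhl, the substrate receptor of the ligase that destroys the alpha subunits, had 36.8, 39.7 and 35.2 in TKO and 19.5, 20.4 and 21.7 in WT. The groups stood far apart with little spread in either (0.83 ± 0.08, limma adjusted p = 0.000504), the smallest adjusted p of the 39 members. Of the prolyl hydroxylases only Egln2 passed, with 42.7, 44.6 and 41.8 in TKO and 29.6, 32.7 and 36.7 in WT (0.38 ± 0.09, limma adjusted p = 0.0134). That call was lost with the trend on length and GC content removed (0.10, limma adjusted p = 0.165) and without WT replicate 2 (0.0539). Egln1, the main oxygen sensor, had 69.3, 94.5 and 71.4 in TKO and 71.4, 84.3 and 94.4 in WT, and Egln3, itself a hypoxia target, had 4.29, 9.9970 and 3.87 in TKO and 3.21, 5.17 and 6.97 in WT. Both overlapped between the groups. Hif1an had 49.1, 42.03 and 49.1 in TKO and 38.7, 37.9 and 36.6 in WT, a small rise without overlap (0.30 ± 0.08, limma adjusted p = 0.0218). Its call was lost when any 1 of TKO replicates 1 and 3 or any WT library was left out, with limma adjusted p between 0.0544 and 0.0735, and with median centring (0.25, limma adjusted p = 0.0515). Antisense genes overlap the exons of Hif1a (Gm15283), Egln2 (Cyp2t4), Pfkm (Senp1), Gapdh (Iffo1) and Higd1a (Gm47112). Reads of the 2 strands cannot be told apart if counting ignored strand, which is not given in the sources used here. Genes on the same strand overlap the exons of Hif1a (Gm49321), Pfkm (Gm26513) and Pkm (Gm49759), and strand cannot separate reads there. Hif1a shared 0.073 of its 50-base stretches with other transcripts.

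Of 8 targets of the factors tested, 1 rose in TKO (all genes, 23.2%), 1 fell (all genes, 22.7%) and 6 did not pass. Vegfa, the vessel growth factor, had 205, 215 and 221 in TKO and 267, 279 and 268 in WT. The spread was small in both groups and they did not overlap (-0.34 ± 0.06, limma adjusted p = 0.00435). Higd1a, a small mitochondrial protein gene, had 37.3, 48.5 and 32.6 in TKO and 18.8, 20.7 and 24.8 in WT, all TKO libraries higher (0.84 ± 0.16, limma adjusted p = 0.00683). With 0.37 of its stretches shared with other transcripts, its count is uncertain. Adm was lower in 2 TKO libraries and just level with the lowest WT library in TKO replicate 2, and it missed the threshold (-0.65 ± 0.22, limma adjusted p = 0.0528). It passed without TKO replicate 2 (-0.92, limma adjusted p = 0.00111), and with the trend on length and GC content removed (-0.84, limma adjusted p = 0.0142).

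The remaining targets overlapped between TKO and WT. Bnip3, a receptor for the removal of mitochondria, had 56.6, 122 and 60.1 in TKO and 46.3, 56.5 and 85.6 in WT (0.29 ± 0.34, limma adjusted p = 0.513). Its relative Bnip3l ranged over 89.1 to 117 in TKO and 83.7 to 101 in WT, and the stress gene Ndrg1 over 43.6 to 74.5 in TKO and 43.8 to 63.5 in WT. Ak4, a mitochondrial adenylate kinase, had 17.6, 33.5 and 23.0 in TKO and 13.3, 15.3 and 21.03 in WT, and Ankrd37, a small ankyrin-repeat gene, had 1.74, 5.29 and 2.16 in TKO and 0.953, 1.12 and 1.83 in WT. Neither passed (limma adjusted p = 0.131 for Ak4 and 0.107 for Ankrd37). Of the 16 alternatives, 1 called Ak4 higher, without TKO replicate 1 (0.74, limma adjusted p = 0.045). Ankrd37 was called higher by 2, DESeq2 (1.24, DESeq2 adjusted p = 0.0331) and limma without both TKO replicate 2 and WT replicate 3 (0.53, limma adjusted p = 0.0445). Car9 stayed between 0.229 and 0.757 in TKO and between 0.212 and 0.367 in WT.

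The hypoxia-inducible factors bind a core that reads ACGTG or GCGTG. Windows of 300 bases, mostly before a transcript start, were searched on both strands. For each gene, only the 1 window nearest the start of its chosen transcript was used. Other starts of a gene were not searched, and a window can lie inside the gene, as for Ldha (chr7:46841475-46855627). ACGTG was present in 19 of 36 members with a promoter entry (52.78%) and in 26.08% of the 9569 entries for tested genes of the TKO table. Either core was present in 29 of 36 members (80.56%), against 64.19%. Slc2a3, Epas1, Bnip3l and Ndrg1 had no entry. ACGTG was held by 8 of the 14 members higher in TKO, 1 of the 2 lower and 9 of the 19 that did not pass, given here as counts with no test. A match is a description of letters and not a binding site. The promoters below belong to the enzyme gene with the largest fold change, to the lactate gene and lactate exporter that rose with it, and to a target that varied between replicates (RefSeq, GRCm38.p6, printed along the gene's own strand, with the cores on either strand in capitals; the 6 bases CACGTG hold a core on each strand).
Pgam1, chr19:41911621-41911920, plus strand: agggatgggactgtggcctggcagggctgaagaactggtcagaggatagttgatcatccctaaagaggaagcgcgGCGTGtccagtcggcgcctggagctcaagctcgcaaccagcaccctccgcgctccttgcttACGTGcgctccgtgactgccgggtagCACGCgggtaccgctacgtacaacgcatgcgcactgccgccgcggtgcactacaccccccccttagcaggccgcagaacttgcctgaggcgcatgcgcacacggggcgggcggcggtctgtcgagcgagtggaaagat
Ldha, chr7:46846832-46847131, plus strand: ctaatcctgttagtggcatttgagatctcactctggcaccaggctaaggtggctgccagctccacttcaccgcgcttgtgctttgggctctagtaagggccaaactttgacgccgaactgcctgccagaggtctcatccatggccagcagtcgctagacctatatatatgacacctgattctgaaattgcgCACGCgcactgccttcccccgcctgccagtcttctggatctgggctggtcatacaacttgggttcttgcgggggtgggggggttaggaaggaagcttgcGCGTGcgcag
Slc16a3, chr11:120948817-120949116, plus strand: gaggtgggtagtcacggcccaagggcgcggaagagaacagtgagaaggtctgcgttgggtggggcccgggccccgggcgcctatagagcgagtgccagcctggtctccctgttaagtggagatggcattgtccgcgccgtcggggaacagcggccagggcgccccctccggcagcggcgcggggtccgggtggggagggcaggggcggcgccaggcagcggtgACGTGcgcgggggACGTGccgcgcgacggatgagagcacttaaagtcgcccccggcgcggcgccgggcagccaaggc
Bnip3, chr7:138909457-138909756, minus strand: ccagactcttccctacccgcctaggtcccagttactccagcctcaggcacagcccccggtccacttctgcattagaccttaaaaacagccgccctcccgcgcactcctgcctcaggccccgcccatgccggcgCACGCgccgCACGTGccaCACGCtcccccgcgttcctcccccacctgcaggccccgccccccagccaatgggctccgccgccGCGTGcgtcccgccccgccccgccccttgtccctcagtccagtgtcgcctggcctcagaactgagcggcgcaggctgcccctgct
The promoter of Vegfa, which fell in TKO, held neither core in this window, and that of Hif1a held 3 ACGTG matches.

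Replicates of a group differed in the members, and largely in step. The median within-group SD of log2 signal was 0.27 over the members in TKO (all genes, 0.14), 0.19 in WT (all genes, 0.086), 0.34 in Dox (all genes, 0.17) and 0.38 in CTL (all genes, 0.14). In each group 1 library held the highest value for most members: TKO replicate 2 for 31 of 39 (35.7% of all genes), WT replicate 3 for 31 (36.8% of all genes), Dox replicate 1 for 30 (26.1% of all genes) and CTL replicate 1 for 29 (35.6% of all genes). The shift was strongest in the targets, whose median deviation from the group mean on the log2 scale was 0.43 in TKO replicate 2, 0.26 in WT replicate 3, 0.60 in Dox replicate 1 and 0.47 in CTL replicate 1. Bnip3 shows it in all groups, with 122 in TKO replicate 2 against 85.6 in WT replicate 3, and 104 in Dox replicate 1 against 98.5 in CTL replicate 1, where the other libraries of the 4 groups had 32.7 to 60.1. Its count is uncertain, with 0.62 of its 50-base stretches shared with other transcripts and the antisense gene Gm45507 over its exons. Leaving out both TKO replicate 2 and WT replicate 3, a choice made after seeing the data, gave 22 members called by limma, beside 37.5% of all genes (19.3% higher and 18.2% lower). That fit called 18 higher and 4 lower, and the 17 above were among the 22.

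Markers of other cell types moved with some of these libraries. The summed signal of macrophage markers (9 of 9 listed, led by Lyz2, Csf1r and Cd68) was 58.7, 295 and 53.0 in TKO against 50.5, 39.8 and 68.5 in WT, highest in the same 2 libraries. In Dox it was 142, 78.2 and 30.5 and in CTL 166, 79.3 and 40.8. Epithelial markers (5 of 6 listed, led by Krt8 and Krt18) summed to 192, 46.9 and 17.2 in Dox and 178, 37.0 and 5.42 in CTL, again highest in replicate 1, whereas in TKO they summed to 0.482, 18.9 and 87.6 and in WT to 34.4, 39.7 and 8.97. Endothelial markers (6 of 6 listed, led by Kdr) summed to 57.3, 96.7 and 129 in TKO, 78.7, 101 and 78.2 in WT, 141, 93.3 and 76.7 in Dox, and 108, 79.8 and 64.7 in CTL. Adipocyte markers (6 of 7 listed in the TKO table, led by Fabp4) summed to 128, 132 and 29.3 in TKO and 28.5 to 33.7 in WT. Markers of smooth muscle and pericytes (5 of 5 listed, led by Acta2, Des and Cspg4) summed to 3083, 2141 and 2559.7 in TKO and 3489, 3695 and 3204 in WT, so that all TKO sums were lower. By limma 0 of these 5 markers were called in TKO against WT (all genes, 45.8%), with a median log2 fold change of -0.075. In Dox they summed to 2926, 3453 and 3515 and in CTL to 2880.2, 2539.7 and 4059. Mesothelial markers (5 of 5 listed) summed to 15.8 to 29.5 in TKO, 21.5 to 28.2 in WT, 23.9 to 29.5 in Dox and 25.2 to 31.8 in CTL. The part of these cells in the levels of the members was not tested.

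**Figure D4:**
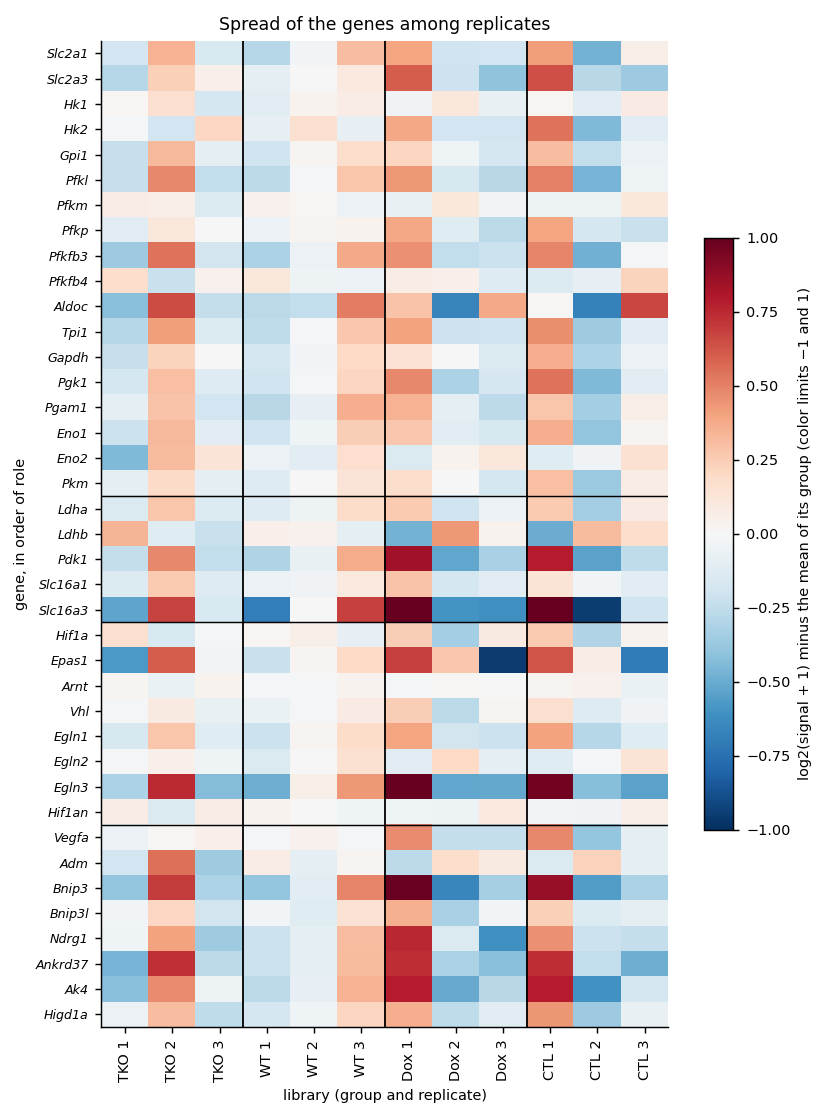
Log2 of signal plus a pseudocount of 1, minus the mean of its group, for 39 members (down, ordered by role) in 12 libraries (across). Red is above and blue below the group mean, with colors saturating at -1 and 1. The columns of TKO replicate 2, WT replicate 3, Dox replicate 1 and CTL replicate 1 are mostly red.

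The second comparison sets Dox cells against CTL cells. They differ in the drug itself as well as in induction of the miR-26a transgene. No group had the drug without the transgenes, so effects of the drug and of the microRNA cannot be told apart. Without regard to pairing, 0 of 39 members and 0 of 12634 genes (0%) passed in Dox against CTL by limma, with 748 genes at an unadjusted p under 0.05. EdgeR also called 0 genes, and DESeq2 called 99 genes and 0 members. Same-numbered Dox and CTL libraries deviated together, so a fit with the replicate number as a block applies. It called 265 genes (2.1%), 71 of them higher (0.562%) and 194 lower (1.54%), and 1 member, Ak4, which was higher. The median log2 fold change of the members was 0.084, beside 0.011 over all genes. Glycolytic enzymes and carriers had a median of -0.0023, and lactate genes 0.094. Groups did not overlap for 5 members (all genes, 12.2%), 3 higher in Dox (all genes, 6.5%) and 2 lower (all genes, 5.66%).

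Ak4 had 52.6, 20.9 and 24.8 in Dox and 35.4, 12.9 and 17.7 in CTL. The groups overlap because replicate 1 is high in both, while within each pair Dox was higher by 0.56, 0.66 and 0.46 on the log2 scale. The blocked log2 fold change was 0.56 ± 0.09 (limma, adjusted p = 0.022), and without pair 1 the adjusted p was 0.0976. Without the block it was 0.954 by limma. In TKO cells the same gene did not pass, as given above.

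Removing the trend on length and GC content together with the block called 957 genes (7.57%), 384 higher (3.04%) and 573 lower (4.54%), and 5 members. Besides Ak4, Slc16a1 was higher, with 99.6, 72.2 and 75.4 in Dox and 71.8, 64.1 and 60.5 in CTL, where the groups do not overlap (0.34, limma adjusted p = 0.0166; with the block alone 0.32 and 0.0855). Hif1an was higher too, with 61.8, 61.8 and 68.3 in Dox and 51.8, 51.7 and 55.3 in CTL, no library overlapping (0.27, limma adjusted p = 0.0252; with the block alone 0.104). Adm was lower, with 69.7, 95.2 and 89.2 in Dox and 95.8, 124 and 99.4 in CTL. Its highest Dox library lay just under its lowest CTL library (-0.34, limma adjusted p = 0.0253; with the block alone 0.0765). Eno2 was lower by a small amount, with 31.1, 35.4 and 37.4 in Dox and 37.6, 40.0 and 45.8 in CTL (-0.24, limma adjusted p = 0.0427; with the block alone 0.162).

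All 3 pairs were higher in Dox for 14 members (all genes, 21.4%) and lower for 7 (all genes, 18.2%). Ankrd37 was among the 14, with 6.44, 2.58 and 2.33 in Dox and 4.78, 1.92 and 1.46 in CTL, and Ndrg1 and Pfkfb3 among the 7. Ndrg1 had 66.6, 35.3 and 25.2 in Dox and 71.6, 44.7 and 43.9 in CTL (-0.40 ± 0.12 with the block, limma adjusted p = 0.122). Pfkfb3, with its seed matches, had 50.6, 30.7 and 31.5 in Dox and 63.5, 32.0 and 44.6 in CTL (-0.29 ± 0.10 with the block, limma adjusted p = 0.166). None of these passed with the block over all 3 pairs. Without pair 2 the blocked fit called Pfkfb3 (-0.41, limma adjusted p = 0.00158) and Ndrg1 (-0.44, limma adjusted p = 0.00481) lower. That fit called 9 members, 3 higher (all genes, 4.22%) and 6 lower (all genes, 7.92%).

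With the block alone, Ldha, Vegfa and Pgam1 did not pass in Dox against CTL. Ldha had 943, 683 and 755 in Dox and 886, 577 and 782 in CTL (0.09 ± 0.08 with the block, limma adjusted p = 0.624). Vegfa had 357, 218 and 218 in Dox and 330.3, 181 and 222 in CTL (0.12 ± 0.08, limma adjusted p = 0.481), replicate 1 being high in both groups. Pgam1 had 142, 105 and 92.8 in Dox and 109, 70.7 and 93.5 in CTL, higher in 2 of 3 pairs (0.31 ± 0.10, limma adjusted p = 0.17), and it passed with the block when pair 3 was left out (0.47, limma adjusted p = 0.000938). Groups overlapped for most regulators too. Hif1a had 547, 364 and 490.4 in Dox and 557, 378 and 476 in CTL, and Epas1 had 97.0, 72.8 and 30.5 in Dox and 104, 70.4 and 40.7 in CTL. Vhl had 41.1, 28.4 and 35.1 in Dox and 35.9, 29.3 and 31.2 in CTL.

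Along the glycolytic steps, 0 of 18 enzymes and carriers passed in Dox against CTL with the block. At glucose entry Slc2a1 had 179.8, 119 and 119 in Dox and 165, 88.2 and 128 in CTL. Slc2a3 had 11.2, 5.93 and 5.03 in Dox and 13.4, 6.63 and 6.18 in CTL, lower in all 3 pairs but by less than the spread between replicate numbers (-0.21 ± 0.11 with the block, limma adjusted p = 0.357). Hk1 had 132, 147 and 129 in Dox and 139, 127 and 144 in CTL. Gpi1 had 461, 385 and 354 in Dox and 503, 341 and 388 in CTL. Both carriers and Gpi1 were highest in replicate 1 of either group. Of the phosphofructokinase subunits, Pfkl had 248, 164 and 151 in Dox and 218, 112 and 149.6 in CTL, higher in Dox in all pairs (0.25 ± 0.10 with the block, limma adjusted p = 0.247; without pair 3 0.37 and 0.0179), and Pfkm had 29.1, 33.1 and 30.1 in Dox and 29.5, 29.5 and 33.1 in CTL. Pfkfb4 had 16.0, 15.7 and 13.7 in Dox and 12.5, 13.03 and 16.3 in CTL, with pair 3 running against the other pairs. Aldoc, the scarcest of the enzymes, had 4.83, 2.01 and 5.23 in Dox and 4.29, 2.29 and 7.36 in CTL, and 2.98, 7.36 and 3.49 in TKO against 3.16, 3.22 and 6.14 in WT.

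In lower glycolysis the pairs split. Tpi1 had 511, 334 and 336 in Dox and 488, 275 and 328 in CTL, and Pgk1 had 450.4, 259 and 287 in Dox and 436, 219 and 278 in CTL. Both were higher in Dox in all 3 pairs without passing (limma adjusted p with the block 0.447 for Tpi1 and 0.501 for Pgk1). Gapdh had 261, 236 and 214 in Dox and 322, 202 and 240.4 in CTL, and Eno1 had 1007, 771 and 748 in Dox and 1102, 651 and 869 in CTL. Pkm had 1527, 1344 and 1197 in Dox and 1722, 1079 and 1473 in CTL. For these 3 genes Dox was higher in pair 2 and lower in pairs 1 and 3. Without pair 2 the blocked fit called Gapdh (-0.23, limma adjusted p = 0.0245) and Pkm (-0.24, limma adjusted p = 0.0422) lower. Higd1a had 46.5, 29.8 and 33.2 in Dox and 43.8, 24.7 and 30.3 in CTL, higher in all pairs by 0.083 to 0.26 on the log2 scale (limma adjusted p = 0.382 with the block).

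Several members were highest in replicate 1 of both groups. Slc16a3 had 159, 44.5 and 44.0 in Dox and 143, 32.8 and 55.9 in CTL, and Egln3 12.7, 3.69 and 3.70 in Dox and 11.2, 3.64 and 3.30 in CTL. Egln1 had 104, 69.4 and 67.7 in Dox and 91.8, 56.5 and 63.6 in CTL, with replicate 1 highest in each. Egln2 had no such pattern, with 54.0, 67.5 and 55.1 in Dox and 49.7, 53.6 and 59.7 in CTL. Arnt had 115, 118 and 117 in Dox and 112, 113 and 105 in CTL. Its groups did not overlap and Dox was higher in all 3 pairs, by 0.033 to 0.15 on the log2 scale, but it did not pass with the block (0.08 ± 0.07, limma adjusted p = 0.632).

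**Figure D5:**
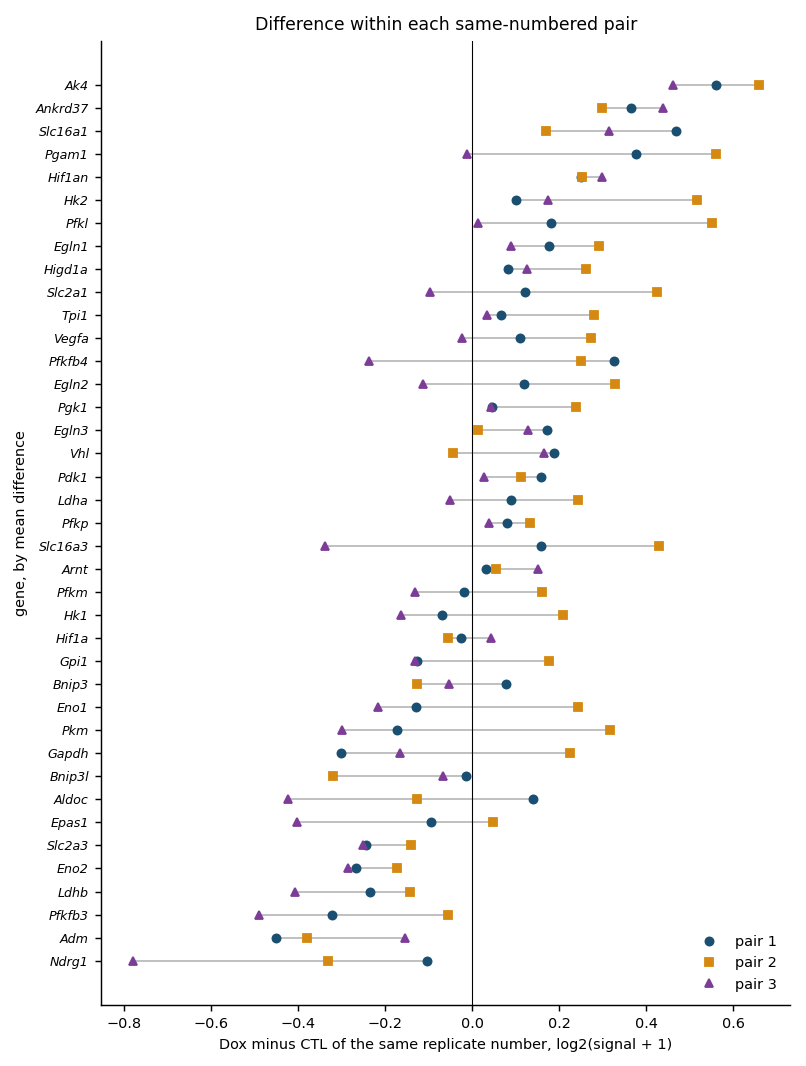
Difference between the Dox and the CTL library of the same replicate number in log2 of signal plus 1, for 39 members ordered by the mean of the 3 pairs. Points right of 0 are higher in Dox. Ak4, at the top, lies at 0.46 to 0.66 in all pairs, and Ndrg1, at the bottom, at -0.78 to -0.10.

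Related pathways were read from further lists, beside 23.2% of all genes higher in TKO and 22.7% lower. Of 11 other glycolytic isozymes and carriers tested, 5 rose in TKO and 1 fell, with the carriers Slc2a8 (0.93 ± 0.14, limma adjusted p = 0.00247) and Slc2a10 (0.62 ± 0.08, limma adjusted p = 0.00152) higher and the mutarotase Galm lower (-0.71 ± 0.07, limma adjusted p = 0.000629). Of 13 genes for the entry of pyruvate into mitochondria, 3 rose and 3 fell. The carrier subunit Mpc2 rose most among the 3 named (1.39 ± 0.12, limma adjusted p = 0.000482), Dlat, a subunit of pyruvate dehydrogenase, rose by 0.34 ± 0.05 (limma adjusted p = 0.00321), and the inhibitory kinase gene Pdk2 fell (-0.68 ± 0.14, limma adjusted p = 0.0084). In the pentose phosphate pathway 2 of 7 rose, Taldo1 (0.64) and Pgls (0.41), and 0 fell. In glycogen metabolism 2 of 12 rose, Pgm2 (0.54) and Pygb (0.38), and 1 fell, Pgm1 (-0.79). Of 33 other targets of the factors tested, 4 rose and 7 fell: Ddit4, an inhibitor of the growth kinase mTORC1, was higher (1.47 ± 0.18, limma adjusted p = 0.00134), and Klf6 (-0.92 ± 0.10, limma adjusted p = 0.00081) and the VEGF receptor Flt1 (-0.64 ± 0.07, limma adjusted p = 0.000921) were lower. Of 14 other pathway components, 4 rose and 7 fell, with Rbx1, the ring subunit of the VHL ligase (0.75), and Rack1 (0.79) higher and the coactivator Crebbp (-0.85) lower.

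In Dox against CTL none of these lists had a call without the block. With it, limma called 3 of 34 other targets higher (all genes, 0.562%) and 2 lower (all genes, 1.54%). Angptl4 was among the higher (0.82 ± 0.13, limma adjusted p = 0.0207). The collagen-modifying Loxl2 (-0.77 ± 0.08, limma adjusted p = 0.00651) and Plod2 (-0.65 ± 0.09, limma adjusted p = 0.0151) were lower. Gyg, the primer of glycogen, was lower (-0.44, limma adjusted p = 0.0319), as was Arnt2 (-0.53, limma adjusted p = 0.042). Among the cell type markers the block called Kdr, an endothelial gene, higher, with 59.9, 49.3 and 56.4 in Dox and 42.5, 36.9 and 35.6 in CTL (0.51 ± 0.08, limma adjusted p = 0.0226). It called the stromal marker Ly6a lower, with 48.2, 104 and 124 in Dox and 75.9, 118 and 245 in CTL (-0.60 ± 0.13, limma adjusted p = 0.0471), and the part of either in the results was not tested. The other glycolytic, pyruvate entry and pentose phosphate lists had 0 calls with the block. The authors' deposited table called 14 members higher and 2 lower at a false discovery rate under 0.05 in TKO against WT, 16 of the 17 limma calls. Of all 19262 genes listed in that authors' deposited table, 24.8% were past the same rate, 13.6% higher and 11.2% lower. In Dox against CTL the authors' deposited table called 0 members and 10 of 16785 listed genes (0.0596%), all 10 lower.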

How the data were processed

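Stranded, poly(A)-selecting libraries were sequenced as 75-base single reads, per the labels' protocols. Per the submitters' processing notes, TopHat2 2.0.12, featureCounts 1.4.6, edgeR 3.8.6 and StringTie 1.2.2 were used with GRCm38 (mm10); the strand setting of counting is not given in the sources used here. The deposited signal values are reads per gene that the authors had scaled with 1 factor for each library. Summed over genes they came to 901970 to 963184 in TKO and to 998525 or more in WT, so depth alone did not set the factors. The authors' deposited log2 fold changes, the p-value and false discovery rate of their test and a likelihood ratio score came with them. Of these only the rate was used, with the sign of the fold change for the direction. Whole reads were recovered: 100% of values in every library were whole within 0.1 reads.

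The values were not counts, so limma 3.58.1 (R 4.3.3, trend on mean level) was run on log2(signal + 1), in each table alone, over genes that reached a signal of 1 in 3 or more of 6 libraries. Fold changes are on this scale, which understates those of low genes. Benjamini-Hochberg adjustment covered every gene tested, and 0.05 was the threshold. Alternatives were a pseudocount of 0.5, no filter, library-size scaling, median centring, removal of a trend on length and GC content, edgeR 4.0.16 and DESeq2 1.42.0 on recovered reads, the replicate block, and each library left out. Limma, edgeR and DESeq2 without the block were tried on simulated counts, with fewer changed genes than were called in TKO against WT. The replicate block and genes that shift together between libraries were not simulated. The simulation therefore does not bear on calls that rest on them. Deviations from group means correlated across genes at 0.863, 0.584 and 0.736 between Dox and CTL libraries of the same number, so these numbers were taken to pair the libraries. The column names of Dox replicates 2 and 3 end in one and the same suffix; only the replicate number tells them apart, and pairs 2 and 3 depend on it.

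Lengths, UTRs and shared 50-base stretches came from 1 GENCODE vM21 transcript per gene, found for 99.83% and 99.87% of identifiers. All members are protein-coding genes. Genes named with values in every library were Ldha, Vegfa, the factor subunits and regulators, members past the threshold and the most abundant isozyme of each step; from other lists, the 3 called genes with the smallest p. The members and all lists were chosen with earlier results of these data known. Of the value columns, 0 were without a sample.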

Additional observations from a re-analysis of the deposited data

How the results depend on the processing

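In TKO against WT, no alternative turned a called member round; a change of sign of a member called in neither fit was not counted as one. Slc2a3, Pfkm, Gapdh, Pgam1, Eno1, Ldha, Slc16a1, Vhl, Vegfa and Higd1a passed in every fit run. Leaving out 1 library gave 11 to 19 members called (9 to 17 higher, 2 to 4 lower), the fewest without WT replicate 2. Of all genes 3938 to 5723 were called, 16.4% to 22.9% higher and 14.7% to 22.3% lower. In place of 15 members higher and 2 lower, 13 were higher and 4 lower with the length and GC trend removed (all genes, 24.3% and 22%). Median centring gave 13 higher and 3 lower (all genes, 20.5% and 26.4%). Without both TKO replicate 2 and WT replicate 3, 22 members were called, 18 higher and 4 lower (all genes, 19.3% and 18.2%). Over the other settings 16 to 20 members were called, beside 32.2% to 50.2% of all genes. The replicate numbers of TKO and WT share only a number (same-number correlations 0.449, -0.135 and -0.293). With that block 5101 genes were called (20.6% of all genes higher and 19.7% lower), and 17 members, 15 higher and 2 lower. In Dox against CTL, DESeq2 called 99 genes, the replicate block 265 genes and 1 member (1 higher), the block with edgeR 189 genes and 1 member (1 higher), and the block with the length and GC trend removed 957 genes and 5 members (3 higher, 2 lower). With the block and 1 pair left out, 134 to 1534 genes (591 without pair 3) and 0 to 9 members (0 to 3 higher, 0 to 6 lower) were called, the most without pair 2. The cause was not tested. Counting error is largest, relative to the level, for the lowest members, Car9, Ankrd37, Aldoc and Egln3; an effect of depth on the calls was not tested.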
